A study of Mus musculus with 2 samples.

Results

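The B7 and CD28 families control whether a T cell that has met its antigen is driven on or held back. CD28 is the costimulatory receptor of T cells, and it binds CD80 and CD86 on antigen-presenting cells. PD-L1, encoded by Cd274, and PD-L2, encoded by Pdcd1lg2, bind the inhibitory receptor PD-1, and tumour cells can carry PD-L1 to restrain T cells. Described here are 9 mouse genes of this axis in 4T1, a transplantable mammary carcinoma line of BALB/c mice: the receptor gene Cd28, the ligand genes Cd274, Pdcd1lg2, Cd80, Cd86 and Icosl, and the partner genes Snd1, Cmtm6 and Cmtm4. They were chosen by gene name, and all 9 were found among the 54532 genes of the count table.

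The series holds 1 sample of wild-type 4T1 cells and 1 of 4T1 cells with a Cd28 knockout, and its title concerns CD28 inside cancer cells and PD-L1. Poly(A) RNA was sequenced, and reads were counted per gene. The labels give the line and the genotype, but not how the knockout was made or whether it is 1 clone. The count column headed KO carries the title of the knockout sample. The wild-type sample was not analysed here, because the other count column, headed PX, has a name that matches no sample label. All values below are therefore levels in 1 knockout library of 15565990 counted reads, with no replicate and no comparison with wild type. Intervals are exact Poisson 95% intervals of the read count. They cover counting error only, since 1 library holds no replicate. They may also be too narrow, because the protocol mentions no molecular identifiers and amplified reads are not independent molecules.

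The 9 genes fell far apart in this library, with the partner genes high, Cd274 low and the other receptor and ligand genes at the limit of counting. Together they took 9991 reads, 0.0642% of the library, and Cmtm4, Snd1 and Cmtm6 held 99.0% of these. Of the 9, 4 had at least 10 reads, the level at which a gene was called detected, against 52.2% of the 22046 protein-coding genes listed. With 9 genes, this count does not set the members apart from that share. The 5 members under that level, Icosl, Cd28, Cd80, Pdcd1lg2 and Cd86, held 22 reads between them. To compare genes with each other, each read count was divided by the length of its gene and the results were rescaled to a total of 1000000 (TPM). On that scale 3 of the 9 lay above 24.4 TPM, the median of detected protein-coding genes, as did 26.1% of all protein-coding genes.

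The sequences around the starts of 3 members are shown because these genes span the range of levels: Cmtm4 was the highest of the 9, Cd274 the intermediate one, and Pdcd1lg2, the neighbour of Cd274 on the chromosome, had 1 read. They are the RefSeq bases just before the start of each gene in GRCm38.p6, written 5′ to 3′ on the strand of the gene. Capitals mark GGGCGG, the GC box bound by Sp1 factors, on either strand, and in Cd274 also GAAANNGAA, the core of an interferon response element, on either strand. The divergent gene Plgrkt overlaps the bases before Cd274, and a shorter stretch is printed there. That stretch still holds the start of Plgrkt, the marked interferon element included.
Cmtm4, chr8:104395808-104396057, minus strand: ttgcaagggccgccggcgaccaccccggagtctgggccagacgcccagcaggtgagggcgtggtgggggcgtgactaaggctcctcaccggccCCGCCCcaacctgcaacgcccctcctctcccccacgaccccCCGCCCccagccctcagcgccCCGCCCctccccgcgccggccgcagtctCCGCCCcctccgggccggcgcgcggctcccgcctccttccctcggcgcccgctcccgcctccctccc
Cd274, chr19:29367318-29367437, plus strand: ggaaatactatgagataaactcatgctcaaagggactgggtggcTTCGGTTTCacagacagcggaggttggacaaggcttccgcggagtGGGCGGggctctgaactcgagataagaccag
Pdcd1lg2, chr19:29410669-29410918, plus strand: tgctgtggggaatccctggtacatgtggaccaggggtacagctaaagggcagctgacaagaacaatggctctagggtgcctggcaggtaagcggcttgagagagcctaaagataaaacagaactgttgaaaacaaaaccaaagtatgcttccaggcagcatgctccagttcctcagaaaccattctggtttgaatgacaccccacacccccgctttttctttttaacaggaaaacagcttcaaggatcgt

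The targeted gene was close to the counting limit. Cd28 (ENSMUSG00000026012, chromosome 1, 60716800 to 60773359, plus strand, mm10) had 8 reads, or 0.514 reads per 1000000 counted reads (CPM, interval 0.222 to 1.01). Its level over the deposited gene length was 0.249 TPM (0.108 to 0.491). The count spans the whole gene, so edited and intact transcripts cannot be told apart, and without a wild-type level it does not check the label. Every 100-base stretch of the main Cd28 transcript (100%) was found in no transcript of another gene of the GENCODE vM21 annotation. T cells are the usual source of Cd28 mRNA, and the T cell genes Cd3d, Cd3e, Cd3g, Cd4, Cd8a and Ptprc had 0 reads each. Of the 7 T cell markers listed, Lck alone had reads, 33. Within 200 kb of Cd28 lie 2 other protein-coding genes: Raph1, a regulator of actin at the leading edge, with 2413 reads and 22.4 TPM, and Ctla4, an inhibitory receptor for the same ligands, with 0 reads.

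The other listed receptors of the family drew no reads in this library. Ctla4, Icos, Pdcd1 (PD-1) and Btla, 4 of 4 listed, had 0 reads. The limit of 3 reads used for such a count is 0.193 CPM, and its exact interval reaches 0.237 CPM. The latter overlaps the Cd28 interval, which begins at 0.222 CPM. Cd28 alone of these receptor genes had reads, but its 8 reads are under 10, so it was not called detected either.

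**Figure D1:**
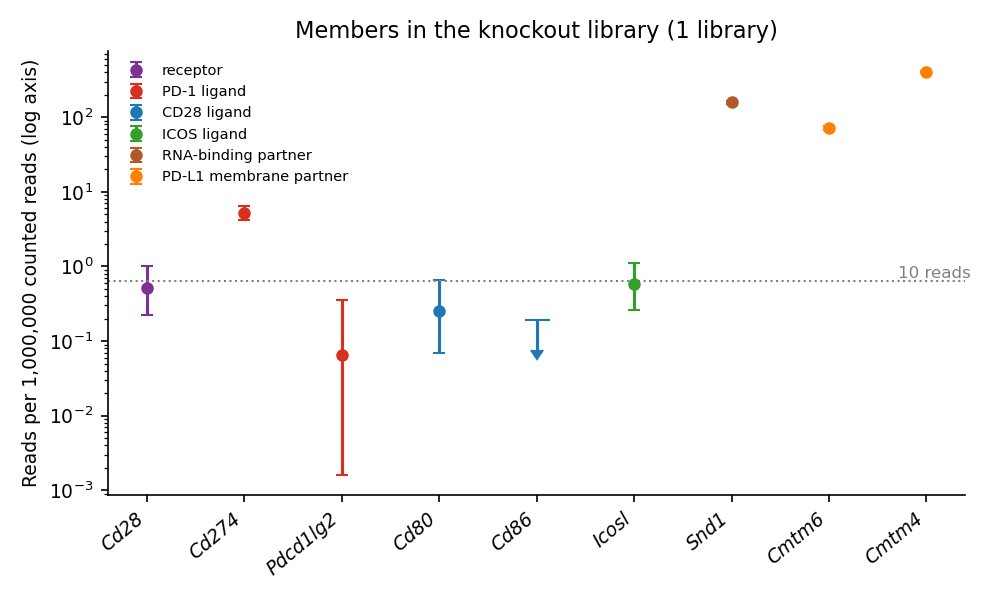
Reads per 1000000 counted reads of the 9 members in the knockout library on a log axis; bars are exact Poisson 95% intervals, the arrow at Cd86 starts at the limit of 3 reads, and the dotted line marks 10 reads. Cmtm4, Snd1 and Cmtm6 lie between 70.9 and 407, Cd274 at 5.27, and the remaining genes at or under 0.578.

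Among the PD-1 ligands, PD-L1 mRNA was present and PD-L2 mRNA was at the counting limit. Cd274 (ENSMUSG00000016496, chromosome 19, 29367455 to 29388095, plus strand) had 82 reads, or 4.32 TPM (3.43 to 5.36). Of the detected protein-coding genes, 14.4% had a lower TPM. Pdcd1lg2 (ENSMUSG00000016498, chromosome 19, 29410919 to 29471157, plus strand), which begins 22.8 kb past the end of Cd274, had 1 read, or 0.116 TPM (0.00293 to 0.646). Per length, Cd274 stood 37.2-fold above Pdcd1lg2, with an exact conditional binomial 95% interval of 6.50 to 1489 that is wide because of the single read. The assignment of reads to Cd274 is less certain than for the other members. Of its 100-base stretches, 93.6% occurred in no other gene's transcript, against 100% for each of the other 8 members. The rest were shared with AC119228.1 or Mdga2, with both strands searched. The exons of AC119228.1, on the opposite strand, cover 14.1% of the Cd274 exon length, so the shared stretches and this overlap are not independent. No read count is listed for AC119228.1. The protocol names no strand-marking step, so reads from the 2 strands there cannot be told apart.

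The genes around Cd274 were not uniformly low. Plgrkt, the plasminogen receptor gene that starts 65 bases upstream on the opposite strand, had 396 reads and 19.9 TPM. Jak2, the kinase that carries interferon signals and lies on the same side, had 1988 reads and 75.35 TPM. On the far side of Pdcd1lg2, Ric1, a factor of Golgi traffic, had 1108 reads and 19.7 TPM. The relaxin family genes of this stretch differed, with 63.8 TPM for Insl6 and 0 reads for Rln1. Cd274 and Pdcd1lg2 thus had lower levels per length than 4 of the 5 other protein-coding genes within 200 kb of Cd274, all but Rln1.

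**Figure D2:**
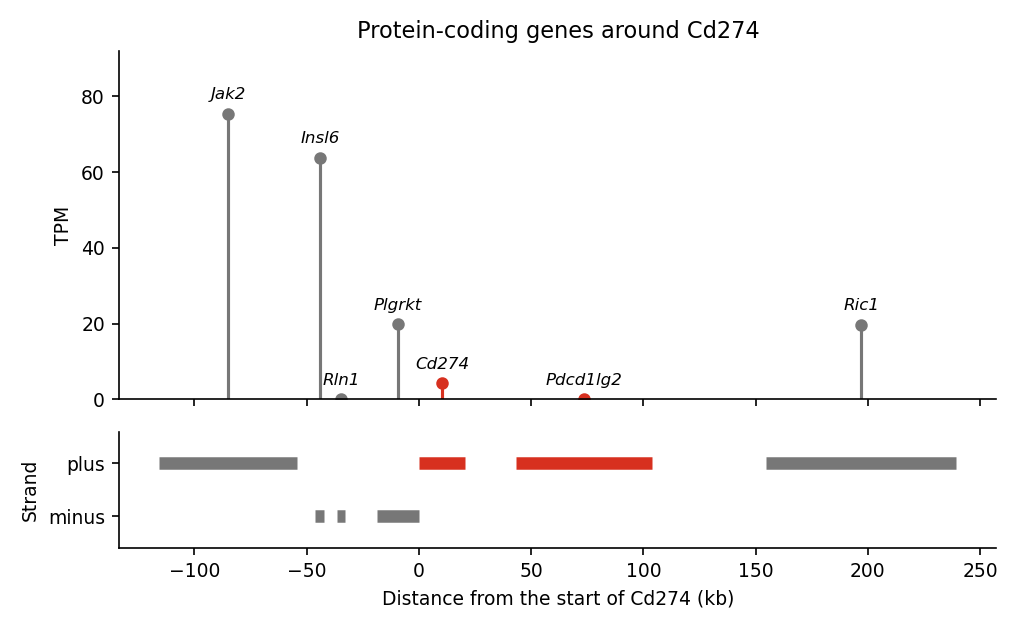
Level of each protein-coding gene within 200 kb of Cd274 (upper panel, TPM, linear axis, 1 knockout library) above its extent and strand (lower panel); the horizontal axis is the distance from the start of Cd274 in kb. Cd274 (4.32 TPM) and Pdcd1lg2 (0.116 TPM), in red, stand below Jak2, Insl6, Plgrkt and Ric1, which range from 19.7 to 75.35 TPM.

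The ligands of the costimulatory receptors were all under 10 reads. Icosl (ENSMUSG00000000732, chromosome 10, 78069302 to 78083913, plus strand), which encodes the ligand of ICOS, had 9 reads, or 0.371 TPM (0.170 to 0.705). Cd80 (ENSMUSG00000075122, chromosome 16, 38455561 to 38496335, plus strand) had 4 reads, or 0.206 TPM (0.0561 to 0.527). Cd86 (ENSMUSG00000022901, chromosome 16, 36603869 to 36666081, minus strand) had 0 reads. The limit of 3 reads used for such a count is 0.156 TPM, and its exact interval reaches 3.69 reads, or 0.192 TPM. CD80 and CD86 are the ligands of CD28 and CTLA-4, and CD80 can also bind PD-L1 on the same cell.

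Cd274 lay above each of these ligands per length, with the counting interval of each ratio above 1. The ratio was 20.96 to Cd80 (7.88 to 78.75), 11.6 to Icosl (5.83 to 26.3) and at least 27.6-fold to Cd86, computed from the Cd274 count against 3 reads. With the counting error of Cd274 included, the exact interval of the ratio to Cd86 begins at 21.97, or at 15.2 over the longest transcripts. Over the transcript with the longest coding part, the ratio to Icosl was 4.25 (2.14 to 9.63). The intervals of Icosl, Cd28, Cd80 and Pdcd1lg2 overlap one another, so these 4 cannot be ordered at this depth. Antigen-presenting cells are the usual source of Cd80 and Cd86. Of 7 myeloid and dendritic cell markers and 3 B cell markers, 0 were detected, with summed levels of 0.809 and 0.267 TPM. Itgax, Adgre1, Flt3, Ms4a1 and Cd79a had 0 reads, Fcgr1 had 6, Lyz2 and Cd79b had 2 each, and Itgam and Csf1r had 1 each. These counts are of the size of the 4 reads of Cd80, and their part in the Cd80 count was not tested. Epithelial markers of the line were present, with Krt18 at 2183 TPM, Krt8 at 1005, Cdh1 at 268, Krt14 at 62.6 and Epcam at 60.3, while Krt5 had 0 reads.

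The rest of the B7 and butyrophilin family ranged from 0 reads to 82.45 TPM. Of 8 relatives listed, 3 were detected and 1 exceeded the median TPM, against 52.2% and 26.1% of all protein-coding genes. With 8 genes, these counts do not set the list apart from those shares. Ildr2, Btnl2 and Btnl9 had 0 reads. The gene above the median was Cd276 (B7-H3), with 1582 reads and 82.45 TPM. Vsir (VISTA) followed with 87 reads and 3.31 TPM, and Btn1a1, a milk-fat butyrophilin, with 28 reads and 1.30 TPM. The list's median, over all 8 genes whether detected or not, was 0.609 TPM. It does not compare with the 24.4 TPM median, which leaves out genes under 10 reads.

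The membrane partners of PD-L1 were well above PD-L1 itself. CMTM6 and CMTM4 are MARVEL-domain membrane proteins that bind PD-L1 and protect it from degradation in human cells, where CMTM4 acts as a second factor of this kind. Cmtm4 (ENSMUSG00000096188, chromosome 8, 104348191 to 104395807, minus strand) had 6333 reads, which is 407 CPM (397 to 417) and 156 TPM (152 to 160.0). Of detected protein-coding genes, 93.65% had a lower TPM. Cmtm6 (ENSMUSG00000032434, chromosome 9, 114731116 to 114749344, plus strand) had 1103 reads, which is 70.9 CPM (66.7 to 75.2) and 61.1 TPM (57.6 to 64.85), above 78.3% of detected protein-coding genes.

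Cmtm4 exceeded Cmtm6 by 2.55-fold per length (2.40 to 2.73), and the raw read ratio of 5.74 was larger because the deposited length of Cmtm4 is 7734 bases against 3440 for Cmtm6. Per length, Cmtm6 stood 14.2-fold (11.3 to 17.95) and Cmtm4 36.2-fold (29.1 to 45.5) above Cd274. Levels of mRNA do not give amounts of protein, and these ratios compare genes within 1 library. All 100-base stretches of both transcripts were found in no other gene (100% each), and no exon of another gene covered theirs.

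Among the other 8 genes of the CMTM family, 3 were detected, against 52.2% of all protein-coding genes, and 4 had 0 reads (Cmtm1, Cmtm2a, Cmtm2b and Cmtm5). With 8 genes, this count does not set the list apart from that share. Cmtm3 had 1011 reads and 64.55 TPM, close to Cmtm6, Cmtm7 had 577 reads and 31.8 TPM, and Cklf, a chemokine-like factor, had 369 reads and 11.5 TPM. The median of these 8 genes was 0.0561 TPM. Cmtm4 had the highest TPM of the 10 family genes, the members included.

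Snd1 was the remaining abundant member, and its rank depends on the length used. SND1, the Tudor staphylococcal nuclease, binds RNA and is a component of the RNA-induced silencing complex. Snd1 (ENSMUSG00000001424, chromosome 6, 28475139 to 28935162, plus strand) had 2451 reads, which is 157 CPM (151 to 164) and 47.9 TPM (46.0 to 49.8) over the deposited length of 9757 bases. That length merges the exons of 12 annotated transcripts, whereas the transcript with the longest coding part has 3482 bases. Over the latter length, with every gene treated alike, Snd1 had 92.8 TPM and Cmtm6 43.0 TPM. The ratio of Snd1 to Cmtm6 was therefore 0.783 (0.729 to 0.842) over deposited lengths and 2.16 (2.01 to 2.32) over those transcripts, and the order of the pair is not settled by these counts. The ratio of Snd1 to Cd274 was 11.1 (8.90 to 14) over deposited lengths and 31.1 (24.95 to 39.2) over those transcripts. Both stand above 1.

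Of 6 listed genes whose products bind SND1 or form silencing complexes with it, 5 were detected and 4 exceeded the median TPM. Of all protein-coding genes, 52.2% and 26.1% did. With 6 genes, whether the list differs from those shares was not tested. G3bp1, a stress granule protein, had 7243 reads and 195.5 TPM, Ago2, the slicing Argonaute, had 9752 reads and 132.5 TPM, and Mtdh, a direct SND1 partner in breast cancer cells, had 4624 reads and 57.4 TPM. Ago4 had 0 reads. The list's median was 45.2 TPM.

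**Figure D3:**
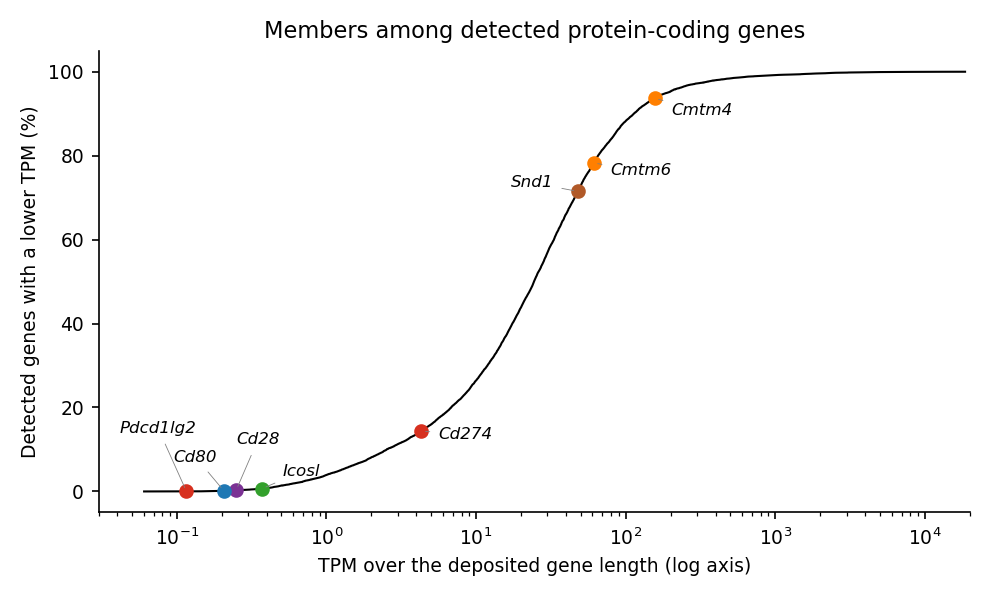
Cumulative distribution of TPM (log axis) over the 11497 detected protein-coding genes, with the 8 members that had any read marked; the vertical axis is the percentage of those genes with a lower TPM. Cd274 lies at 14.4%, Snd1 at 71.5%, Cmtm6 at 78.3% and Cmtm4 at 93.65%, and Icosl, Cd28, Cd80 and Pdcd1lg2 lie under 1%. Icosl, Cd28, Cd80 and Pdcd1lg2 had fewer than 10 reads and are not in the ranked set, so their low rank was largely set in advance. Among genes with at least 1 read, Icosl lies at 13.45%, Cd28 at 11.01%, Cd80 at 9.817% and Pdcd1lg2 at 6.424%.

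**Figure D4:**
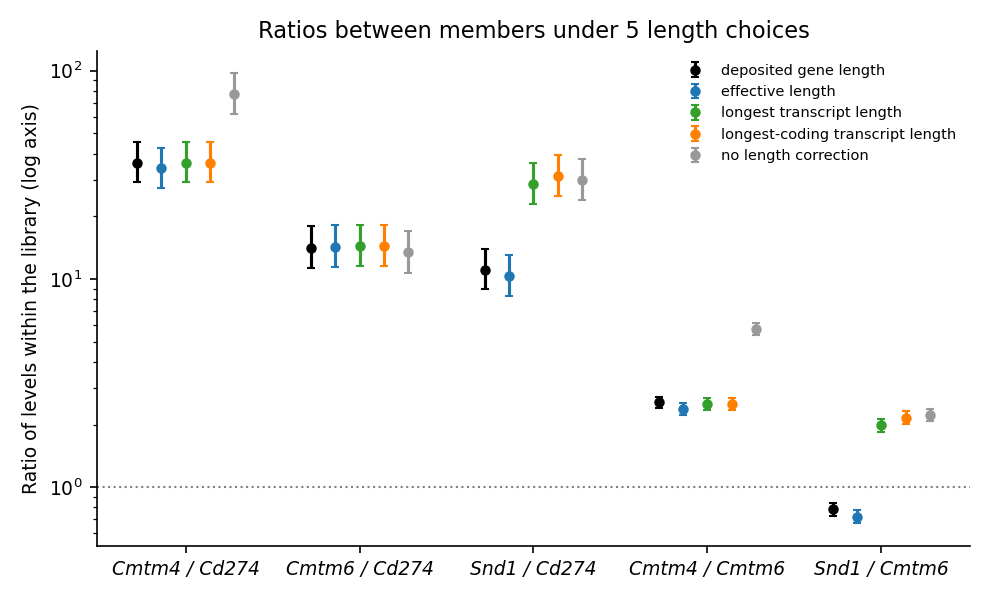
Ratios of levels between members on a log axis, under 5 ways of correcting for length, with exact conditional binomial 95% intervals; the dotted line marks equal levels. Each of the 3 partner genes stays above Cd274 under all 5 settings, whereas the Snd1 to Cmtm6 ratio runs from 0.722 to 2.22 and crosses 1.

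The pathway that induces Cd274 was represented throughout. Interferon gamma binds the receptor made of IFNGR1 and IFNGR2, the kinases JAK1 and JAK2 pass the signal on, and IRF1 then activates the Cd274 promoter. All 11 genes examined were detected, 7 of them above the median of 24.4 TPM, with a median over the list of 46.2 TPM. Of all protein-coding genes, 52.2% were detected and 26.1% exceeded 24.4 TPM. Rela, the NF-kB subunit, had 179 TPM, Jak2 had 75.35 TPM and Irf1 had 59.5 TPM. Ifngr1 and Ifngr2 had 45.2 and 46.2 TPM. The lowest of the 11 was Stat2, a transcription factor of the type I interferon response, with 229 reads and 7.37 TPM, above the 4.32 TPM of Cd274.

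**Figure D5:**
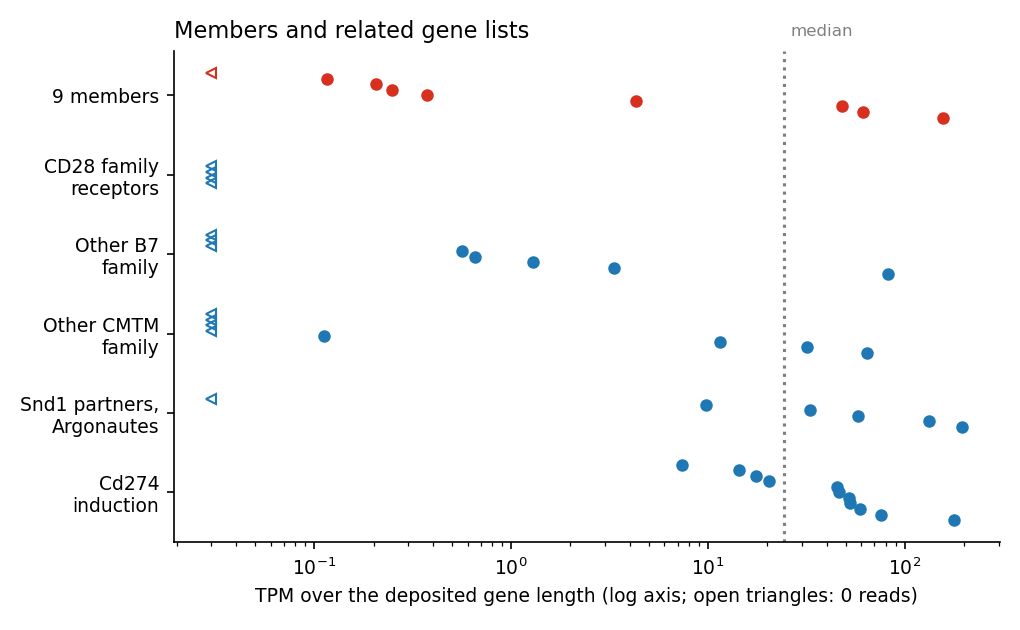
TPM (log axis) of the 9 members and of 5 related gene lists in the knockout library; each point is a gene, open triangles at the left edge are genes with 0 reads, and the dotted line is the median of detected protein-coding genes (24.4 TPM). The 4 CD28 family receptors all sit at 0 reads, and the 11 genes of Cd274 induction all lie at or above 7.37 TPM.

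The promoters differed in base composition alongside these levels. RefSeq promoters were found for 7 of the 9 members, all but Cd28 and Cd86. For Cd80, Snd1, Icosl and Cmtm6 the deposited gene begins upstream of the RefSeq start, so that the window overlaps it. In the 250 bases before the start, Cmtm4 held 29 CpG dinucleotides, Icosl 23, Cmtm6 17, Snd1 15, Cd274 11, and Cd80 and Pdcd1lg2 3 each. The median over 32851 RefSeq promoters was 6. The 4 detected members all lay above that median, but so did Icosl with its 9 reads. The GC box GGGCGG, found on either strand in 32.7% of all promoters, occurred 4 times in Cmtm4, 2 times each in Cmtm6 and Snd1, once in Cd274 and Icosl, and not in Cd80 or Pdcd1lg2.

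The interferon response element core GAAANNGAA was found in Cd274 alone of the 7 promoters. It begins 76 bases before the start, on the opposite strand, and 7.13% of all promoters hold such a match. The STAT motif TTCNNNGAA and the TATA motif TATAAA were found in 0 of the 7 windows, against 7.02% and 12.4% of all promoters. CCAAT occurred in Icosl and Snd1, 2 times each, and in 33.85% of all promoters. Both strands were searched for each motif. A match of letters is not a bound site, and the absence of one concerns these windows only.

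The 3′ untranslated region of Cd274 was rich in the AU pentamer ATTTA, the core of the elements that mark short-lived mRNAs. In 2683 bases it held 11 copies, or 4.10 per 1000 bases, more per base than in 91.4% of 9038 detected genes (median 1.48). Pdcd1lg2 had 3.03 copies per 1000 bases (2 copies in 660 bases) and Cd80 2.64 (5 in 1896). The partner genes lay nearer the median, with 1.88 for Snd1 (1 in 532), 1.45 for Cmtm6 (4 in 2768) and 1.44 for Cmtm4 (10 in 6936). Cd28 had 1.68 (6 in 3574). The rates of Snd1 and Pdcd1lg2 rest on 1 and 2 copies and are coarse. Cd86 and Icosl had 0 copies in 1493 and 658 bases. The following 30 bases, from the GENCODE vM21 transcript (GRCm38, chr19:29387194-29387223, plus strand), show one of the stretches of Cd274 with 2 pentamers, in capitals.
Cd274, 3′ untranslated bases 1782 to 1811: tttttATTTAatgtatggatATTTAtgctg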

How the data were processed

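RNA of 2 samples was sequenced, and 1 library, the knockout, was analysed. The deposited table gives counts of reads per gene, not normalized, with other columns for position and gene length in bases. The tools named in the submitters' processing notes are featureCounts 1.5.0-p3, HISAT2 2.0.5 and CASAVA, and the build is mm10. How strand and multiply placed reads were handled, and which annotation was used, is not given in the sources used here. In the table, 1 column of per-sample values matched no label and was not used, so the planned knockout against wild-type comparison was not made.

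From the deposited counts, CPM (total 15565990) and TPM over the deposited gene length were computed, with exact Poisson 95% intervals for counts, exact conditional binomial 95% intervals for ratios of members, and a limit of 3 reads for a count of 0. These intervals were tested on counts simulated from the same Poisson model, which cannot show whether the real reads follow that model. Shared 100-base stretches and exon overlaps came from GENCODE vM21 (GRCm38), and AU pentamers were counted in 3′ untranslated regions of at least 300 bases. Promoters are RefSeq (GRCm38.p6). Named genes are the members, up to 3 genes of each list with the highest TPM and those with 0 reads, and protein-coding genes within 200 kb of Cd28 or Cd274. Ifngr1, Ifngr2, Stat2 and the further cell type markers named were chosen after their values were seen, as were the motifs. Some listed genes are not reported here. The members and lists were chosen with earlier results of these data known. Other denominators, lengths and read minimums were tried. Python 3.11.15, numpy 2.4.6, pandas 2.3.3, scipy 1.17.1 and matplotlib 3.10.9 were used.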

Additional observations from a re-analysis of the deposited data

How the results depend on the processing

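No paired analysis was possible because a single library was analysed, and no replicate could be left out. Variation between cultures was not measured, and depth limits the 5 members with fewer than 10 reads most. The alternatives for the knockout against wild-type comparison were not run. Of the members, 8 had at least 1 read, 7 at least 3 and 4 at least 10, and 3 had at least 100. Without length correction the Cmtm4 to Cmtm6 ratio was 5.74 and the Cd274 to Pdcd1lg2 ratio 82; with a fragment length of 400 bases subtracted, the Cmtm4 to Cmtm6 ratio was 2.38. The Snd1 to Cd274 ratio was 28.6 over the longest transcript, 31.1 over the longest-coding transcript (chosen after seeing the data) and 29.9 without length correction. The Snd1 to Cmtm6 ratio, 0.783 over deposited lengths, reversed in these 3 settings to 1.99, 2.16 and 2.22; the deposited Snd1 length, merged over its transcripts, sets this. The Cmtm6 to Cd274 ratio stayed within its counting interval in all 4 settings. Without length correction 97.3% of detected protein-coding genes lay below Cmtm4, 89% below Snd1, 69.5% below Cmtm6 and 14.1% below Cd274. The rank of Cd274, 14.4%, was 28.6% among genes with at least 1 read, 2.25% among those with at least 100 and 11.3% over the longest-coding transcript. Of 18 recomputed CPM values, 16 stayed within their counting intervals. So did 12 of 24 TPM values, 12 of 36 percentiles and 27 of 40 ratios. The TPM values that stayed all belong to Icosl, Cd28, Cd80 and Pdcd1lg2, whose intervals are wide. Every recomputed TPM of Cd274, Snd1, Cmtm6 and Cmtm4 left its interval. Over the longest transcript, with the fragment length subtracted, and over the longest-coding transcript, Cd274 had 3.41, 3.22 and 2.985 TPM. In the same order, Cmtm4 had 123, 109 and 108 TPM, Cmtm6 49.15, 45.9 and 43.0, and Snd1 97.7, 33.1 and 92.8. Among recounts of detected genes in the lists, 20 of 27 stayed within 1.5 times.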
